A study of Mus musculus with 12 samples.

Results

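A group of 10 genes that restrain T cell receptor (TCR) signalling was examined in CD4 T cells of the mouse gut epithelium. The genes were Dgka, Dgkz, Cblb, Itch, Rnf128, Ptpn22, Ptpn6, Dok1, Dok2 and Sla2, and they were found by matching each symbol to the gene name that the array table gives for a probe. Of these, 8 were matched by 17 of 25697 probes, and no probe carried the name Itch or Sla2. All 8 were among the 10612 genes tested, where a gene had to be detected at p under 0.05 on at least 2 of 12 arrays. The genes were chosen by a rule that used measured values, their log2 signals in the 3 sorted subsets on these arrays, so differences between subsets are a description for them. The counts of genes that pass a test between subsets are given beside those over all genes, and again under other processing. Nothing is read from them.

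CD4 intraepithelial lymphocytes of the small intestine were sorted by a green fluorescent protein reporter of the helper-lineage factor ThPOK and by CD8a. Cells of the THPOK+CD8a- gate are called ThPOK+ below, those of the THPOK-CD8a- gate CD8a-, and those of the THPOK-CD8a+ gate CD8a+. Both hosts involve the strain B6-ThPOK-GFP reporter, and the mice were 10 to 12 weeks old. Cells labelled WT came from reporter mice that the labels call non-experimental. Cells labelled TR descended from naive CD4 T cells of reporter mice that were transferred into RAG-/- recipients, which lack T and B cells of their own, as a model of colitis. Each of the 6 groups had 2 arrays, so each subset had 4, and the 3 arrays of 1 host and 1 replicate number are called a set. The labels do not say that replicates came from separate animals, so the spread behind each p-value may be only technical, and how many mice stand behind an array is not given in the sources used here. The tables conflict on which host the arrays of replicate 1 belong to. This leaves untouched the differences between subsets over both hosts and their tests with the sets as a block. It does affect comparisons of hosts, and the p-values of subset fits without the set block, which use means per host.

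When the TCR is engaged, phospholipase C cleaves a membrane lipid into inositol trisphosphate and diacylglycerol, and diacylglycerol recruits RasGRP1 and protein kinase C theta to switch on the Ras and NF-kappaB pathways. Diacylglycerol kinases end this signal by turning diacylglycerol into phosphatidic acid. Other brakes act nearby: E3 ubiquitin ligases mark signalling proteins for removal, phosphatases take phosphate off the receptor's kinases and adaptors, and Dok adaptors recruit inhibitors of Ras. Several of these genes are known from T cell anergy, and intraepithelial T cells, which lie against food and microbial antigens, are known for a raised threshold of TCR activation.

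Values are log2 signals after background correction and quantile normalization, and each gene is represented by its probe with the highest mean. Arrays of replicate 1 had median raw intensities of 113.6 to 130.8 and 12024 to 13091 detected probes, and arrays of replicate 2 had 206.7 to 246.2 and 6721 to 8195. Each probe of these genes was read from 20 to 60 beads per array. The mean signal of 7 CD4 T cell genes was 10.23 to 10.68 on all 12 arrays, and Cd68, Cd14, Pax5 and Mzb1, markers of myeloid and B-lineage cells, were detected on 0 arrays. The mean of 13 Paneth and goblet cell genes was 9.65 and 8.39 on the ThPOK+ arrays of WT replicates 1 and 2 and 9.97 on the CD8a+ array of WT replicate 2, against 5.32 to 7.16 on the others. In bulk RNA of this kind, fewer cells that express a gene and less RNA per cell cannot be told apart.

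Dgka and Cblb were the pair of these genes whose levels moved most closely together, so the bases upstream of a transcription start of each are shown. Sequences are the 250 bases before the start in the RefSeq annotation of GRCm38.p6, written along the gene's own strand. The window of Dgka is chr10:128745085-128745334 on the minus strand, before the most upstream of its 4 RefSeq starts, and that of Cblb is chr16:52031299-52031548 on the plus strand. Capitals mark the GC box GGGCGG or its reverse complement CCGCCC.
Dgka: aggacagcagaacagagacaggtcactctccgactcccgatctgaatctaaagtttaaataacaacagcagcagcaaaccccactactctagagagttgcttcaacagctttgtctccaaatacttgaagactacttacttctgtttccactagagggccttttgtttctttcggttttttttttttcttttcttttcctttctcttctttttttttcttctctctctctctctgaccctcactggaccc
Cblb: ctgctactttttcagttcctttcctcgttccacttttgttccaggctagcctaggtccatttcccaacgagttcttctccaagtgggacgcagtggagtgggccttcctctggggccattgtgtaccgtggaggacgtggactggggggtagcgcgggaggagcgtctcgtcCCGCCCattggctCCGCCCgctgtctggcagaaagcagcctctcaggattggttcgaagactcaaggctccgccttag
The Dgka window had a GC content of 41.2% and 0 GC boxes, whereas the Cblb window had 58.8% and 2 GC boxes. The median GC content over 32851 mouse windows of this length was 52.4%, and 32.7% of them held a GC box on either strand. The other 3 starts of Dgka, which lie downstream, each had a window with 2 or 3 GC boxes. The FOXO motif TGTTTAC, the RUNX motif TGTGGT and the EGR motif GCGTGGGCG were also searched on both strands and occur in 3.17%, 14% and 0.536% of all windows. Among 12 windows of the 7 genes with an entry, RUNX letters were found in 2, which belong to Ptpn22 and Sla2, and FOXO and EGR letters in 0. These counts describe letters in short windows.

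Dgka encodes DGK-alpha, one of the main diacylglycerol kinases of T cells, and it had the widest spread of subset means among the 8 genes. In ThPOK+ cells its log2 signal was 9.27 and 10.18 on the arrays of WT replicates 1 and 2, and 10.38 and 10.44 on those of TR replicates 1 and 2. In CD8a- cells it was 9.08, 8.89, 8.86 and 9.54 in the same order. In CD8a+ cells it was 8.55, 8.43, 8.61 and 9.18. Every ThPOK+ array was above every CD8a+ array, while the highest CD8a- array was above the lowest ThPOK+ array.

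Over 4 arrays each, the mean log2 signal of Dgka was 10.07 ± 0.55 (SD) for ThPOK+, 9.09 ± 0.31 for CD8a- and 8.69 ± 0.33 for CD8a+ cells. CD8a+ cells were 1.37 ± 0.22 (SE of the fit) below ThPOK+ cells on the log2 scale, a 2.59-fold lower signal. Within the sets of WT replicate 1, WT replicate 2, TR replicate 1 and TR replicate 2 the difference was -0.72, -1.75, -1.77 and -1.26. CD8a- cells differed from ThPOK+ cells by -0.98 ± 0.22 and CD8a+ from CD8a- cells by -0.40 ± 0.22. The order ThPOK+, then CD8a-, then CD8a+ held in 4 of 4 sets for Dgka, as it did for 60 of the 10612 genes tested (0.565%), and CD8a+ and CD8a- arrays overlapped when the sets were pooled. A second Dgka probe, also detected on 12 of 12 arrays, gave 10.08 ± 0.38, 8.92 ± 0.43 and 8.53 ± 0.68 in the 3 subsets, with a Pearson correlation of 0.96 between the probes over 12 arrays centred within their set. Of the sets with arrays high in Paneth and goblet cell genes, WT replicate 1 had the narrowest of the 4 gaps and WT replicate 2 nearly the widest. Without the 3 such arrays the difference was -1.55. No ThPOK+ array of WT was then left, so this value rests on the ThPOK+ arrays of TR and does not check the difference in WT.

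Dgkz encodes DGK-zeta, the other diacylglycerol kinase best known from T cells, and its levels did not follow those of Dgka. In ThPOK+ cells its log2 signal was 6.65 and 7.08 in WT and 6.80 and 7.53 in TR, replicates 1 and 2 in that order. In CD8a- cells it was 6.45, 7.32, 6.72 and 6.82, and in CD8a+ cells 6.69, 7.73, 6.89 and 7.82. The 3 subsets overlapped, with replicate 2 above replicate 1 in every group. The mean was 7.01 ± 0.38, 6.83 ± 0.36 and 7.28 ± 0.57 (SD, n = 4) in ThPOK+, CD8a- and CD8a+ cells. CD8a+ cells were above ThPOK+ cells by 0.27 ± 0.19 and above CD8a- cells by 0.45 ± 0.19 (SE), each in 4 of 4 sets, and CD8a- cells differed from ThPOK+ cells by -0.19 ± 0.19. The 3 Dgkz probes disagreed, with correlations of -0.07, 0.04 and -0.23 between them, so the order of the subsets for Dgkz depends on the probe.

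**Figure D1:**
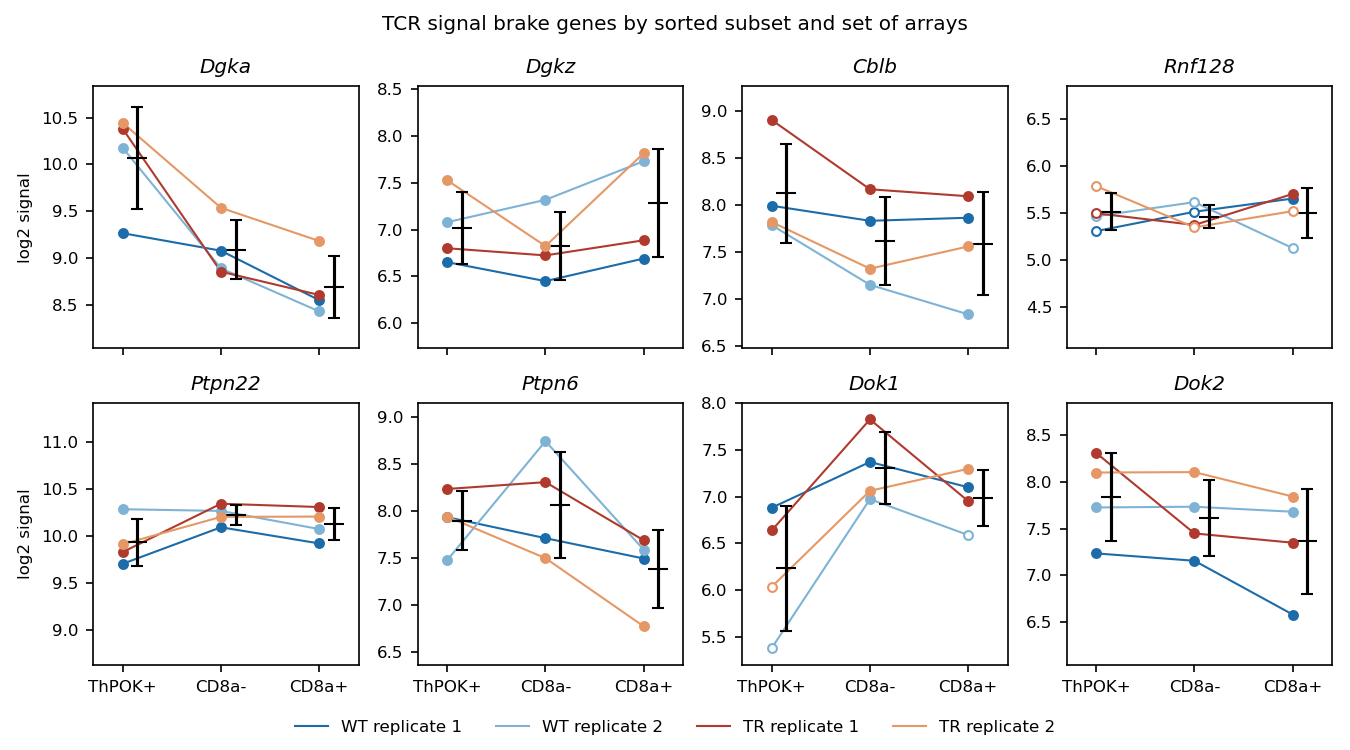
Log2 signal of the 8 measured genes (vertical axis, a scale of its own for each gene) in ThPOK+, CD8a- and CD8a+ cells, with lines joining the 3 arrays of a set, open points for arrays where the probe was not detected, and bars for the mean and SD of 4 arrays. Dgka steps down from ThPOK+ to CD8a+ cells in all 4 sets, and Dok1 is lowest in ThPOK+ cells in all 4 sets.

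Cblb encodes Cbl-b, an E3 ubiquitin ligase that makes T cell activation depend on CD28, and like Dgka it was highest in ThPOK+ cells. Its log2 signal in ThPOK+ cells was 7.99 and 7.79 in WT and 8.91 and 7.82 in TR. It was 7.83, 7.15, 8.17 and 7.32 in CD8a- cells and 7.86, 6.83, 8.09 and 7.56 in CD8a+ cells, in the same order. Pooled over sets the subsets overlapped, since the sets themselves lay at different levels, but the ThPOK+ array was the highest of its set in 4 of 4 sets. The mean over 4 arrays was 8.13 ± 0.53 (SD) for ThPOK+, 7.62 ± 0.47 for CD8a- and 7.59 ± 0.55 for CD8a+ cells. CD8a+ and CD8a- cells were 0.54 ± 0.18 and 0.51 ± 0.18 (SE) below ThPOK+ cells and differed from each other by -0.03 ± 0.18. A second probe of Cblb was detected on 6 of 12 arrays and had a correlation of 0.62 with the first. By this probe CD8a+ and CD8a- cells were 0.11 and 0.19 above ThPOK+ cells in WT replicate 1, and below them in the other sets.

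Rnf128 encodes GRAIL, an E3 ligase induced in anergic T cells, and it was at the edge of detection. Its better probe was detected on 0 of 4 ThPOK+, 0 of 4 CD8a- and 2 of 4 CD8a+ arrays, and the other on 1 of 12. The mean log2 signal was 5.51 ± 0.20, 5.46 ± 0.13 and 5.50 ± 0.26 (SD, n = 4) in the 3 subsets, so no order of subsets can be read for Rnf128.

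Ptpn22 encodes a phosphatase, known as PEP in the mouse, that acts on Lck and Zap70, and it was detected on 12 of 12 arrays with little spread. In ThPOK+ cells its log2 signal was 9.70 and 10.29 in WT and 9.83 and 9.91 in TR. It was 10.09, 10.27, 10.35 and 10.21 in CD8a- cells and 9.92, 10.08, 10.31 and 10.21 in CD8a+ cells. The subsets overlapped, and WT replicate 2 was the only set in which the ThPOK+ array was the highest of its 3. Means were 9.93 ± 0.25, 10.23 ± 0.11 and 10.13 ± 0.17 (SD, n = 4), with CD8a- and CD8a+ cells 0.29 ± 0.15 and 0.20 ± 0.15 (SE) above ThPOK+ cells. A second probe, with a mean of 5.90 over all arrays, was detected on 6 of 12 and had a correlation of 0.78 with the first. Over 12 arrays centred within their set, Ptpn22 had a Pearson r of -0.74 with the mean of the Paneth and goblet genes. The part of those genes in its differences was not tested.

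Ptpn6 encodes SHP-1, a phosphatase recruited by inhibitory receptors. Its log2 signal was 7.93 and 7.48 in WT and 8.24 and 7.94 in TR ThPOK+ cells. It was 7.71, 8.75, 8.31 and 7.50 in CD8a- cells and 7.49, 7.59, 7.69 and 6.77 in CD8a+ cells. The CD8a+ array was below the CD8a- array in 4 of 4 sets, by 0.68 ± 0.27 (SE) on average, although the subsets overlapped. CD8a+ cells differed from ThPOK+ cells by -0.51 ± 0.27 and CD8a- from ThPOK+ cells by 0.17 ± 0.27. The last value had no settled direction, as it was above 0 in 2 of 4 sets and was -0.12 without the ThPOK+ array of WT replicate 2, -0.09 without the CD8a- array of that set and -0.26 without the 3 arrays high in Paneth and goblet genes, a fit with no ThPOK+ array of WT. Means were 7.90 ± 0.31, 8.07 ± 0.57 and 7.38 ± 0.42 (SD, n = 4) in ThPOK+, CD8a- and CD8a+ cells, and the second probe, detected on 11 of 12 arrays, had a correlation of 0.71 with the first.

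Dok1, which encodes an adaptor that brings Ras inhibitors to activated receptors, was lowest in the ThPOK+ cells, where Dgka was highest. Its log2 signal in ThPOK+ cells was 6.88 and 5.38 in WT and 6.64 and 6.04 in TR, and the probe was detected on 2 of these 4 arrays, both of replicate 1. In CD8a- cells it was 7.37, 6.97, 7.82 and 7.06, with detection on 4 of 4 arrays. In CD8a+ cells it was 7.10, 6.59, 6.95 and 7.30, with detection on 3 of 4. Every CD8a- array was above every ThPOK+ array, and in 4 of 4 sets the ThPOK+ array was the lowest.

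Mean log2 signals of Dok1 were 6.24 ± 0.67, 7.31 ± 0.38 and 6.98 ± 0.30 (SD, n = 4) in ThPOK+, CD8a- and CD8a+ cells. CD8a- cells were 1.07 ± 0.24 and CD8a+ cells 0.75 ± 0.24 (SE) above ThPOK+ cells, and CD8a+ cells differed from CD8a- cells by -0.32 ± 0.24. Without background correction the Dok1 signal of CD8a- cells was 0.54 above that of ThPOK+ cells. The other 2 probes of Dok1 were detected on 0 arrays.

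Dok2 encodes the related adaptor that, with Dok1, restrains TCR signalling, and it did not share the pattern of Dok1. Its log2 signal was 7.24 and 7.73 in WT and 8.31 and 8.10 in TR ThPOK+ cells. It was 7.16, 7.73, 7.45 and 8.10 in CD8a- cells and 6.58, 7.68, 7.35 and 7.84 in CD8a+ cells. The CD8a+ array was the lowest of its set in 4 of 4 sets, although the subsets overlapped. Means were 7.84 ± 0.47, 7.61 ± 0.40 and 7.36 ± 0.56 (SD, n = 4). CD8a+ cells were 0.48 ± 0.19 (SE) below ThPOK+ cells and 0.25 ± 0.19 below CD8a- cells, and CD8a- cells differed from ThPOK+ cells by -0.23 ± 0.19.

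**Figure D2:**
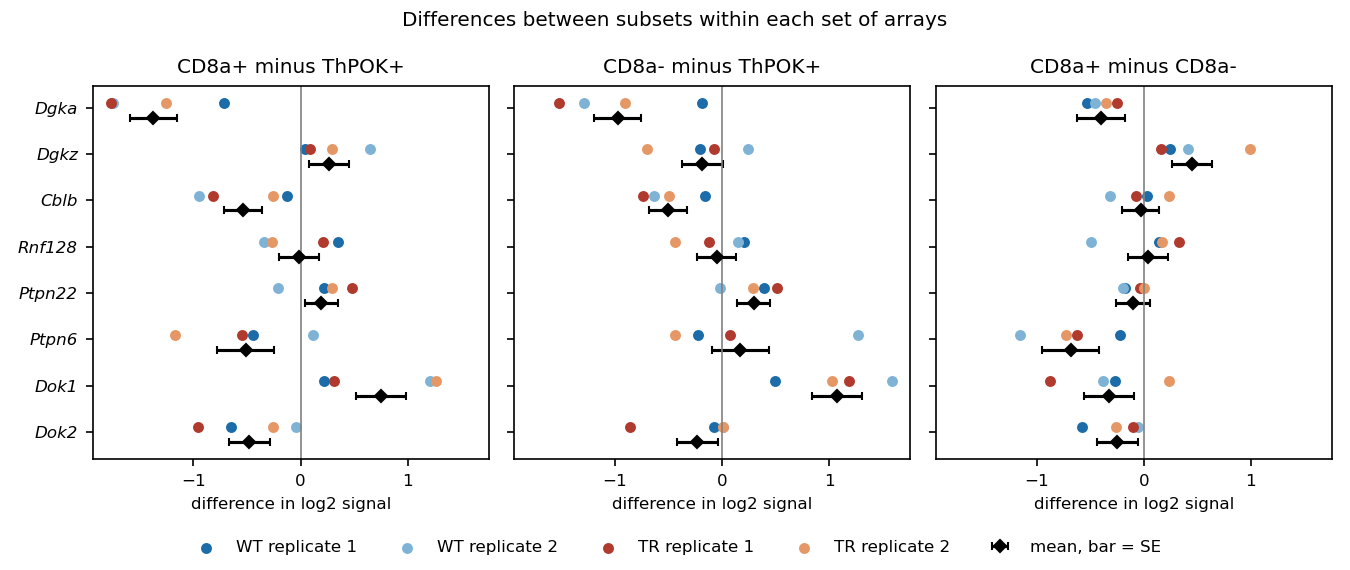
Difference in log2 signal between subsets for each gene (horizontal axis), with 1 coloured point per set and a black diamond for the fitted mean with its SE. In the left panel Dgka lies lowest at -1.37 and Dok1 highest at 0.75, and in the right panel Ptpn6 lies lowest at -0.68.

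Counts over the 8 genes follow beside the same counts over all genes tested. The choice of genes used these contrasts, so the counts are no evidence about them. Between CD8a+ and ThPOK+ cells 1 of 8, Dgka, passed limma's test with Benjamini-Hochberg adjustment, against 0.565% of all genes. The count was 0 of 8 with the replicate number alone as the block, against 12 of all 10612 genes. Groups did not overlap for 1 of 8, Dgka, against 3.05% of all genes, and 5 of 8 had the same direction in 4 of 4 sets, 2 higher and 3 lower in CD8a+ cells, against 17.7%. Between CD8a- and ThPOK+ cells 0 of 8 passed the test (0.0565% of all genes), groups did not overlap for 1, Dok1 (2.68%), and 3 had the same direction in 4 of 4 sets (18%). Between CD8a+ and CD8a- cells 0 of 8 passed (0% of all genes, of which 5.1% had an unadjusted p under 0.05), groups overlapped for all 8 (1.33% of all genes did not overlap), and 4 had the same direction in 4 of 4 sets (14.3%).

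Levels of the 8 genes were also set against each other over the 12 arrays, centred within each set, as a description in which the arrays share sets and subsets. Dgka and Cblb had a Pearson r of 0.93, Dgka and Dok2 0.73, and Dgka and Dok1 -0.77. Dgka and Dgkz had an r of -0.33. Of all genes tested, the 3 most like Dgka were Klf2, a transcription factor of quiescent and circulating T cells, with an r of 0.988, Cd53, a tetraspanin of leukocytes, with 0.980, and Tasp1, a protease, with 0.974. The 3 most like Dok1 were Ilf2, Cdc73 and Ubac2, with an r of 0.955, 0.945 and 0.938. The 3 most like Ptpn6 were Pdk3, Dusp4 and Rpgr, with an r of 0.950, 0.949 and 0.947. Klf2 was detected on 5 of 12 arrays, 1 of them of CD8a+ cells, so its low values are near background.

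Genes of naive and circulating T cells moved with Dgka and Cblb. The mean log2 signal of 9 such genes, of 10 listed, was 7.17 to 9.20 on ThPOK+ arrays, 6.36 to 7.12 on CD8a- arrays and 6.03 to 6.80 on CD8a+ arrays. Between CD8a+ and ThPOK+ cells the mean of these genes differed by -0.47, -2.28, -2.86 and -0.47 in the sets of WT replicate 1, WT replicate 2, TR replicate 1 and TR replicate 2. The 2 sets with the widest gap in these genes were also the 2 with the widest gap in Dgka, and in Cblb. Among them Tcf7, a transcription factor of naive and memory T cells, fell from ThPOK+ to CD8a+ cells by limma (log2 difference -2.18 ± 0.38 SE, adjusted p = 0.0440), a call lost with the replicate number alone as the block (adjusted p = 0.146). Ccr7, a chemokine receptor of naive T cells, was detected on 2 of 4 ThPOK+, 0 of 4 CD8a- and 0 of 4 CD8a+ arrays, as was Igfbp4. Both passed the detection filter through ThPOK+ arrays alone, which tilts the mean of the 9 genes towards ThPOK+ cells. Only 2 of the 9 were detected on all 12 arrays. The set-centred r with the mean of all 9 genes was 0.93 for Dgka, 0.93 for Cblb, 0.74 for Dok2 and -0.67 for Dok1, a description that shares this tilt. The part of the 9 genes in the differences between subsets was not tested.

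**Figure D3:**
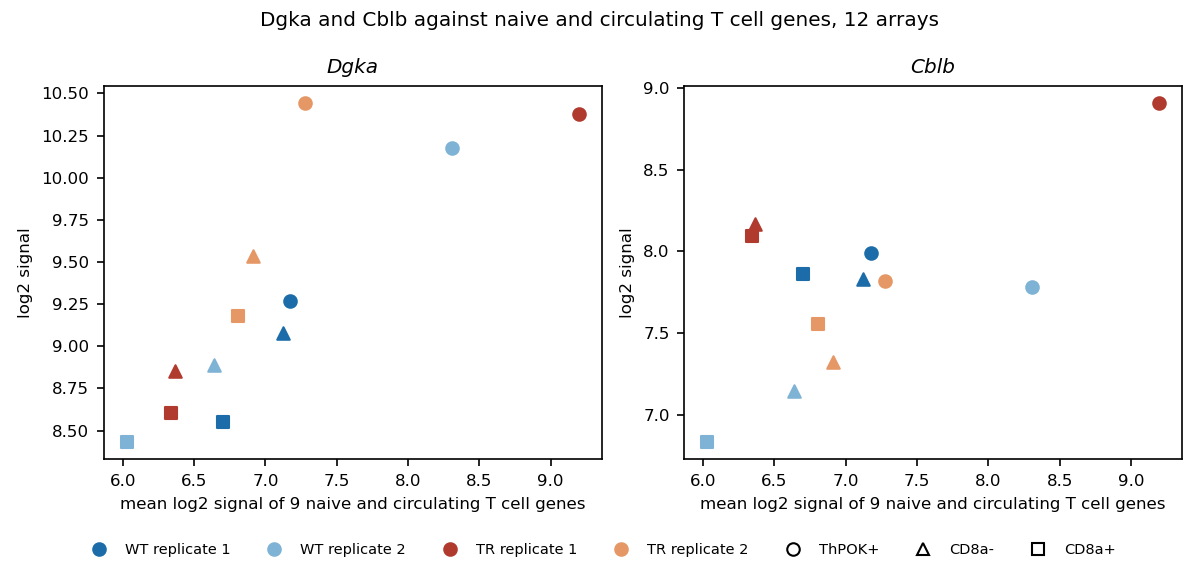
Log2 signal of Dgka and Cblb (vertical axes) against the mean log2 signal of 9 naive and circulating T cell genes (horizontal axis) on 12 arrays, with colours for sets and shapes for subsets. The ThPOK+ arrays of TR replicate 1 and WT replicate 2 lie farthest to the right, at 9.20 and 8.31.

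Whether the host changed these brakes was a comparison that the choice of genes did not use. Over the 3 subsets, 0 of 8 genes differed between TR and WT by limma, where all 8 adjusted p-values were 1 and 0 had an unadjusted p under 0.05. Of all 10612 genes 0% passed, and 4.55% had an unadjusted p under 0.05. With the replicate number as a block, 0 of 8 passed either, with adjusted p-values of 0.441 to 0.940, but Dok2 (limma unadjusted p = 0.0223) and Cblb (0.0356) were then under 0.05, as were 9.63% of all genes.

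The mean of Dgka was 9.50 ± 0.77 (SD, n = 6) in TR and 9.07 ± 0.63 in WT, a difference of 0.43 ± 0.23 (SE) with a 95% interval from -0.09 to 0.96. Dok2 had the widest difference, 0.51 ± 0.26, with an interval from -0.09 to 1.10, and was higher in TR in all 6 pairs of the same subset and replicate number. Cblb differed by 0.40 ± 0.30, also higher in TR in 6 of 6 pairs, with an interval from -0.28 to 1.09. These intervals come from the fit without the block. With the block they ran from 0.09 to 0.92 for Dok2, from 0.03 to 0.77 for Cblb and from -0.00095 to 0.87 for Dgka, without adjustment for the number of genes. The other 5 genes differed by -0.08 to 0.25. The intervals without the block leave room for differences of up to about 1 on the log2 scale for Dgka, Cblb and Dok2. Every host fit, with or without the block, counts the 3 arrays of a set as independent, although each host had only 2 sets. The SEs and intervals may therefore be too narrow and the p-values too small, and the 6 pairs are not 6 independent comparisons.

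With the hosts of replicate 1 exchanged, the difference was 0.12 for Dgka, -0.09 for Cblb and -0.20 for Dok2, so the direction for Cblb and Dok2 rests on which table names the host. Ptpn6 then differed by -0.45 ± 0.22, with an interval from -0.94 to 0.04 without the block and from -0.88 to -0.02 with it (limma unadjusted p = 0.0431, against 9.03% of all genes under 0.05, and adjusted p = 0.530). In that arrangement 0 of 8 genes passed, against 0.00942% of all genes.

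**Figure D4:**
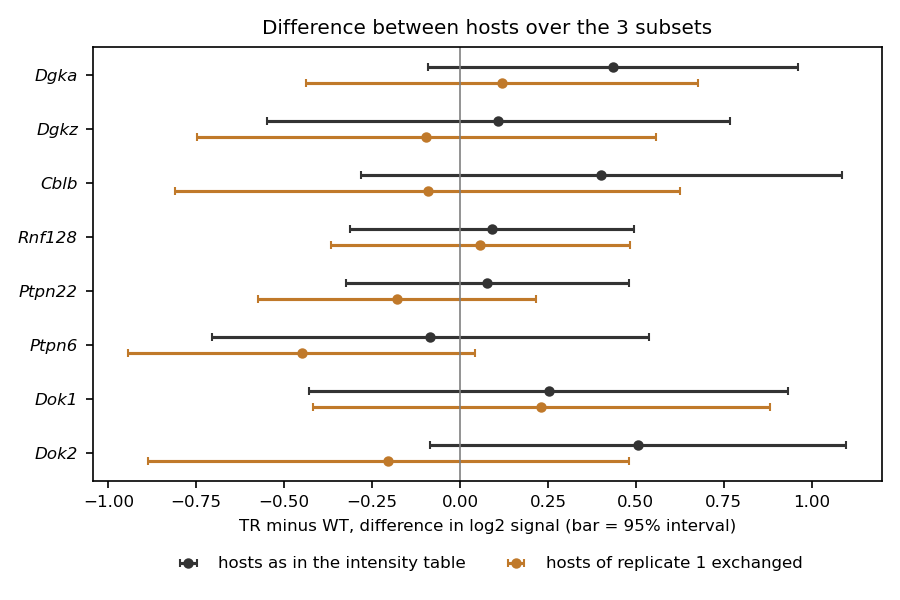
TR minus WT difference in log2 signal over the 3 subsets for each gene (horizontal axis) with its 95% interval from the fit without the replicate block, under the host names of the intensity table (dark) and with the hosts of replicate 1 exchanged (brown). Every interval drawn includes 0, and Dgkz, Cblb, Ptpn22 and Dok2 change sign between the arrangements.

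The gap between CD8a+ and ThPOK+ cells was also compared between hosts. For Dgka it was -1.52 in TR and -1.23 in WT, a difference of -0.29 ± 0.57 (SE) that did not pass limma's test (adjusted p = 1). With the hosts of replicate 1 exchanged the gap was -0.99 in TR and -1.76 in WT, a difference of 0.77 ± 0.60 with an adjusted p of 1. For all 8 genes the adjusted p was 1 in both arrangements, where 0% of all genes passed and 1.18% had an unadjusted p under 0.05 under the labelled hosts. With 2 arrays a group, the SE of this difference was 0.44 to 0.74 for the 8 genes, so only a wide gap between hosts could have been seen.

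Other genes of the pathway were taken from 3 lists and compared between CD8a+ and ThPOK+ cells. Of 57 other TCR brakes 44 were tested and 0 passed limma's test, while 1 was higher and 7 lower at an unadjusted p under 0.05, against 9.79% of all genes. Their median log2 difference was -0.067, with 17 above and 27 below 0, against a median of 0.0034 over all genes. The smallest p-values belonged to Ptpn7, a phosphatase of MAP kinases (-1.17 ± 0.27 SE, adjusted p = 0.122), Ptprj, a receptor phosphatase (0.63 ± 0.19, adjusted p = 0.274), and Dusp10, another MAP kinase phosphatase (-0.84 ± 0.27, adjusted p = 0.297). Of the other diacylglycerol kinases, Dgke was detected on 9 of 12 arrays and differed by 0.65 ± 0.50, whereas Dgkh, Dgki and Dgkq were detected on 3, 3 and 2. Dgkb, Dgkd and Dgkg were not among the genes tested.

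Of 40 genes of proximal TCR signalling and the diacylglycerol pathway, 35 were tested and 0 passed, with 2 higher and 1 lower at an unadjusted p under 0.05, a share near the 9.79% of all genes. Their median difference was -0.010. Among the smallest p-values were those of Cd3g, a chain of the CD3 complex (0.45 ± 0.15, adjusted p = 0.346), and Malt1, a protease of the NF-kappaB pathway (-0.96 ± 0.38, adjusted p = 0.445). Rasgrp1, the Ras activator that diacylglycerol recruits, differed by -0.17 ± 0.18. Prkcq, which encodes protein kinase C theta, differed by -0.41 ± 0.19 and was detected on 6 of 12 arrays. Neither passed the test.

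Of 21 transcription factors tied to anergy and activation, 16 were tested and 1 rose. Nr4a2, an orphan nuclear receptor induced by TCR signals, was 7.47 ± 0.45 (SD, n = 4) in ThPOK+ and 9.46 ± 0.70 in CD8a+ cells, a log2 difference of 1.99 ± 0.24 (SE) with a limma adjusted p of 0.0118. With the replicate number alone as the block the adjusted p was 0.254. Without the 3 arrays high in Paneth and goblet genes, which leaves no ThPOK+ array of WT, it was 0.130. The median difference of the list was -0.20, with 3 genes above and 13 below 0, so Nr4a2 stood against the direction of most of its list. Next by p were Foxo1, a factor of quiescent T cells (-0.56 ± 0.26, adjusted p = 0.526), and Egr1, an early response factor (-0.38 ± 0.17, adjusted p = 0.526). Nr4a2 was 9.06 ± 0.89 (SD, n = 4) in CD8a- cells, 1.59 ± 0.24 (SE) above ThPOK+ cells (limma adjusted p = 0.0577). CD8a+ cells were 0.40 ± 0.24 above CD8a- cells, so its higher level was not particular to CD8a+ cells. Between CD8a- and ThPOK+ cells, between CD8a+ and CD8a- cells, and between hosts, 0 genes of the 3 lists passed limma's test. At an unadjusted p under 0.05 these comparisons held 3 or fewer genes of any list in either direction, against 8.65%, 5.1% and 4.55% of all genes.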

How the data were processed

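Total RNA of sorted CD4 intraepithelial lymphocytes was hybridized to 12 Illumina MouseRef-8 arrays. Per the file headers, the authors deposited probe intensity exported from GenomeStudio 1.0.6 without normalization, with a detection fraction per probe, read here as 1 minus a detection p-value, and bead numbers. A deposited table of log2 values is centred within each set of 3 arrays, and its rows are not paired with gene names here, so it served only to compare host names: under its labels, the sets of replicate 1 matched only the other host's.

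R 4.3.3 and limma 3.58.1 were used for neqc with an offset of 16, quantile normalization, and log2. Probes needed a detection p under 0.05 on 2 or more arrays, which kept 14635 of 25697, and the probe with the highest mean stood for each of 10612 genes. Subsets were compared over both hosts with the 4 sets as a block. The alternatives with the replicate number alone as the block, or with no block, fitted the 6 group means of host and subset. Hosts, and the difference of the subset gap between hosts, were fitted with 6 group means and no block. This fit takes the 3 arrays of a set as independent. All fits were two-sided limma tests on 12 arrays with Benjamini-Hochberg adjustment over all genes and a threshold of 0.05. Of these, only the comparisons of CD8a+ and CD8a- with ThPOK+ cells and of TR with WT were also run on simulated data. Replicate numbers were taken as pairing the arrays, since their deviations correlated across genes in all 15 pairs of groups (0.356 to 0.657). These pairs include groups of different hosts, so the correlations describe the replicate number. They do not show by themselves that the 3 arrays of a set belong together. The number of arrays limits the precision.

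The genes and lists were chosen with earlier results of these data known. Named genes are the 10 of the group, the 3 genes most alike in pattern to the 3 with the widest range of subset means, and up to 3 genes of each list with the smallest p in CD8a+ against ThPOK+ cells. The other diacylglycerol kinases, Rasgrp1, Prkcq, Tcf7 and Ccr7 were named in addition, after their values were seen, and some genes that the rule names are not reported here. Alternatives covered background, normalization, filter, block, samples and hosts.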

Additional observations from a re-analysis of the deposited data

How the results depend on the processing

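The log2 difference of Dgka between CD8a+ and ThPOK+ cells kept its direction under all 22 alternatives, from -1.62 to -1.11. Nothing is read from tests of the 8 genes between subsets, since their choice used these values. The members called between CD8a+ and ThPOK+ cells numbered 1 and became 0 without a detection filter, with no replicate block, with the replicate number alone as the replicate block, with only the 8 arrays compared, and without the 3 arrays high in Paneth and goblet genes. The last was an alternative chosen after seeing the data, and it left no ThPOK+ array of WT. Leaving out each array gave 0 to 1, with 0 except without the ThPOK+ array of WT replicate 1 or either CD8a- array of WT. Without a detection filter 43 of all 17916 genes were called, and the counts over all genes for the other alternatives named here are given below.

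Nr4a2 and Tcf7 also kept their direction under all 22 alternatives, with limma adjusted p-values of 0.00516 to 0.438, under 0.05 under 16, and of 0.0222 to 0.322, under 0.05 under 7.

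Over all genes, calls between CD8a+ and ThPOK+ cells (60) and between CD8a- and ThPOK+ cells (6) became 135 and 40 with no background correction, 93 and 26 with an offset of 50, 4 and 1 with no replicate block, 12 and 1 with the replicate number alone as the block, 0 and 0 with only 8 arrays, and 10 and 0 without the 3 arrays high in Paneth and goblet genes. The second count was also 31 with arrays scaled to one median and 16 with detection on at least 6 arrays. Leaving out 1 array gave 2 to 78 and 0 to 14, with 2 and 1 without the ThPOK+ array of TR replicate 1. Genes called between hosts numbered 0, 1 with the hosts of replicate 1 exchanged, 8 when the replicate block was added (also chosen after seeing the data), and 0 to 13 when 1 array was left out, with 13 without the CD8a+ array of WT replicate 1. The cause was not tested.

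Host differences that changed sign were those of Ptpn6, 0.14 with arrays scaled to one median, and, with hosts exchanged with or without the block, Dgkz (-0.10), Cblb (-0.092), Ptpn22 (-0.18) and Dok2 (-0.20). The difference of the Dgka gap between hosts became 0.77 there. Leaving out 1 array gave -0.064 to 0.28 for Dgkz, -0.020 to 0.17 for Ptpn22, -0.26 to 0.088 for Ptpn6 and -0.74 to 0.17 for the Dgka gap. The replicate block changed no call at the adjusted threshold among the host comparisons of the 8 genes. The deposited log2 table was not run as an alternative, because its rows are unnamed here. Signal over background limits Rnf128 and Dok1 most.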
